A study of Drosophila melanogaster with 9 samples.

Results

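The genes described here encode the subunits of the vacuolar proton ATPase of *Drosophila melanogaster*. They are the 33 rows of the raw count table whose symbol starts with Vha, of 16492 rows in all. RNA was sequenced from GFP-positive cells that were sorted from wing imaginal discs of wandering larvae of the third instar, with 3 libraries per genotype, each from at least 60 discs. STAT supercompetitors (hop libraries) expressed *hop*, the Janus kinase of the fly. Myc supercompetitors (Myc libraries) expressed *Myc*, which the table lists as *dm*. Control cells (gfp libraries) expressed GFP alone. All 3 groups carried w over + and a chromosome with dpp-gal4 and uas-gfp, which stood over uas-hop in hop, over uas-myc in Myc and over + in gfp animals. The study's text gives w over w in place of w over +, and this difference was not resolved. The driver *dpp-gal4* set where the transgenes were on, so the sorted cells come from the stripe of the *dpp* domain. The question is what cells with elevated JAK/STAT signaling or elevated Myc express relative to control cells, and for this family which copy of each subunit they express.

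The vacuolar proton ATPase (V-ATPase) is a rotary pump that acidifies endosomes, lysosomes and secretory vesicles. Its V1 sector in the cytoplasm breaks down ATP and turns a shaft, and its V0 sector in the membrane moves protons as its ring of proteolipids turns. In growing tissue the pump is known for lysosomal degradation, for receptor traffic through endosomes and for the sensing of amino acids by TORC1 at the lysosome. The fly genome holds several copies of many subunits, and some of the additional copies are known to be transcribed mainly in one tissue, such as testis, midgut or neurons.

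By their annotated subunit, 13 of the 33 genes belong to V1, 18 to V0 and 2 to accessory proteins, and together they cover 15 types of subunit. They lie on chromosomes 2L (6 genes), 2R (8), 3L (5), 3R (12) and X (2). The annotation (Ensembl release of BDGP6.54, the dm6 assembly) matched 32 of the 33 symbols as they stand, and *VhaM8.9* as a synonym of *ATP6AP2*. A pair of related genes, *CG31030* (annotated as *VhaAC45RP*) and *CG5421*, carry other symbols in the table and were not counted as members. They averaged 7.26 and 5.16 RPKM over the 9 libraries and were not called in any comparison.

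The libraries held 5110634 to 6104490 counts, of which the 33 genes took 0.181% to 0.242%. *hop* averaged 1312 ± 149 CPM in hop libraries, 65.6 ± 7.55 in Myc libraries and 71.6 ± 8.73 in gfp libraries (mean ± SD, n = 3; CPM are reads scaled by the library size that TMM adjusted). *dm* averaged 322 ± 37.4 CPM in hop libraries, 638 ± 122 in Myc libraries and 243 ± 13.7 in gfp libraries, so both transgenes were found where the labels place them. A pair of libraries stood apart from their own group on the first principal component, Myc 1 at 14.8 (the other Myc libraries at -24.5 and -17.5, hop libraries at 21.2 to 26.1) and gfp 1 at -6.45 (the other gfp libraries at -20.2 and -19.1). The 6 listed markers of the wing disc and its *dpp* domain (*dpp*, *ptc*, *ci*, *nub*, *vg* and *sd*) were all detected. They summed to 2495 to 3130 CPM in hop, 2416 to 2500 in Myc and 2377 to 2641 in gfp libraries. *ci* alone averaged 1441, 1070 and 1069 CPM in hop, Myc and gfp libraries, *dpp* 196, 228 and 236, and *ptc* 224, 286 and 254. Not all 6 are limited to the *dpp* stripe, so the sum does not place the cells there. Markers of neurons and glia were also present, and none of the 4 was called, with *elav* at 89.96, 66.0 and 71.9 CPM and *nSyb* at 61.7, 56.1 and 67.3 CPM in hop, Myc and gfp libraries. Posterior compartment markers (3 genes) summed to 94.6 to 112 CPM in hop, 72.0 to 82.7 in Myc and 122 to 133 in gfp libraries, and testis markers (5 genes) to 10.8 to 17.4, 9.11 to 16.03 and 20.4 to 25.4. Tracheal markers (3 genes) summed to 211 to 230 CPM in hop, 140 to 203 in Myc and 146 to 180 in gfp libraries. Within this list *Gasp* averaged 116, 72.6 and 58.3 CPM in hop, Myc and gfp libraries. *btl* went the other way in hop, at 11.5, 20.3 and 17.3 CPM, and *trh* was at 90.0, 79.8 and 86.0 CPM. Fat body markers (5 genes) summed to 100.5 to 110, 57.8 to 74.2 and 75.9 to 92.4 CPM. The fat body sum was mostly *apolpp* (82.2, 37.8 and 55.3 CPM), while *Fbp1* was at 2.999 CPM in hop and 8.64 in gfp libraries and *Lsp1beta* at 6.62 and 9.93, and the median log2 fold change of the list in hop against gfp was -0.45. Hemocyte (5 genes) and adult muscle precursor markers (5 genes) each had 1 gene called higher and 1 lower in hop than in gfp. Over all marker lists, *ci*, *Mef2*, *Hml* and *Gasp* were called higher and *zfh1* and *Pxn* lower in hop than in gfp, *inv* lower in Myc than in gfp, and *ci*, *nub*, *Gasp* and *apolpp* higher and *Fbp1* lower in hop than in Myc. The part of these other cells in the results below was not tested, and in sorted pools fewer cells of a type and less RNA per cell cannot be told apart.

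Levels were set per length, as CPM per kilobase of annotated exon (RPKM), averaged over all 9 libraries. Members at 10 RPKM or more were called high, those at 1 to under 10 low and those under 1 trace. There were 16 high, 16 low and 1 trace members. The high set holds one copy of each of the 15 subunit types and a further copy of subunit a. The median was 26.4 RPKM in the high set and 2.70 in the low set. The member just inside the limit was *Vha14-1* at 10.1 RPKM, and the member just outside was *Vha100-4* at 9.003 RPKM. RNA of 1 tissue was measured, so a low level here does not show in which other tissue a copy is used. The spread between libraries of a group was smaller for the high set, with median coefficients of variation of 13.2% in hop, 9.45% in Myc and 10.2% in gfp libraries, against 40.6%, 37.2% and 45.5% for the low set.

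**Figure D1:**
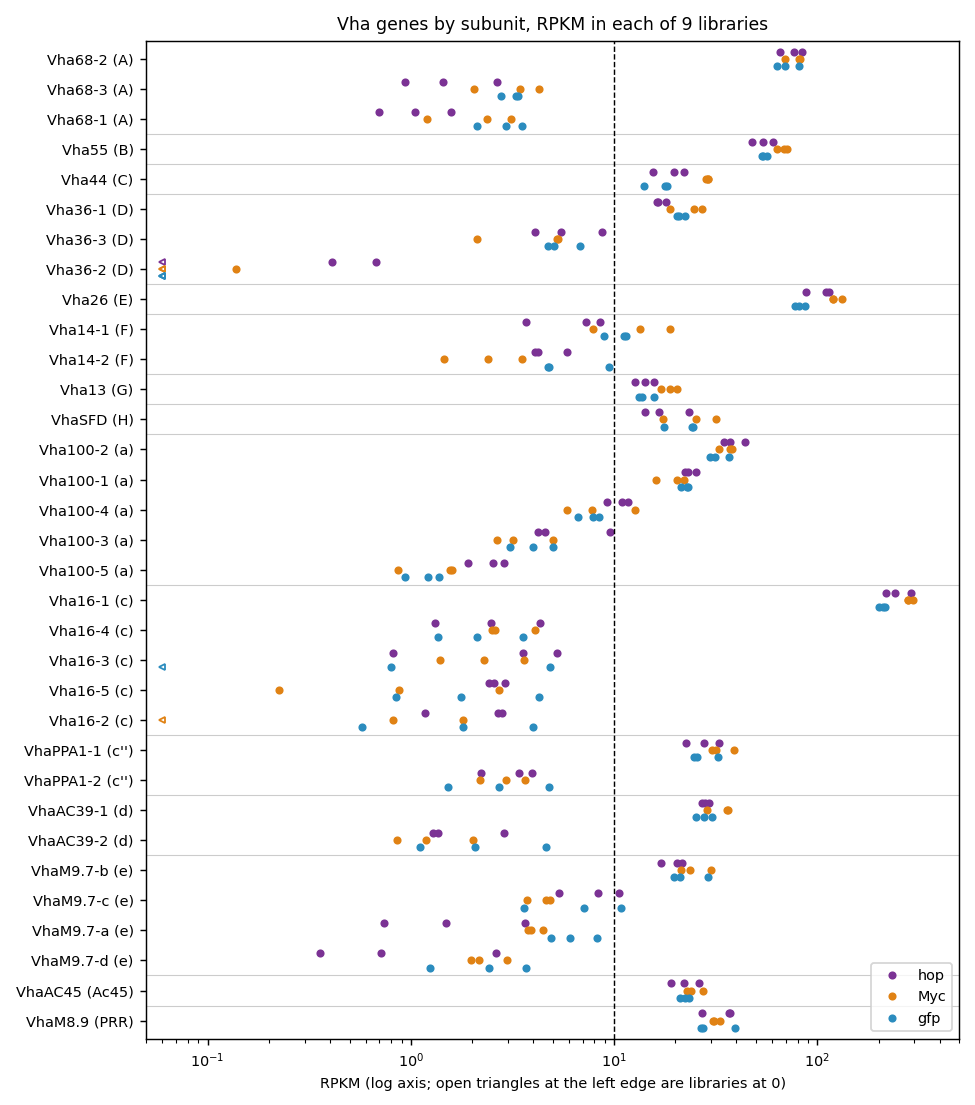
Each row is a Vha gene with its subunit in parentheses, the x axis is RPKM on a log scale, and each point is a library of hop (purple), Myc (orange) or gfp (blue). The dashed line at 10 RPKM parts the 16 high from the 16 low and 1 trace members by their mean, and *Vha16-1* lies above all others at 201 to 297 RPKM.

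In the V1 sector, the ring that breaks down ATP is built of subunits A and B. *Vha68-2*, the main copy of the catalytic subunit A, was at 65.4, 84.1 and 76.4 RPKM in hop libraries, 69.2, 82.4 and 81.6 in Myc libraries and 63.0, 69.7 and 80.9 in gfp libraries. *Vha55*, the only gene for subunit B, was at 47.4, 54.1 and 60.8 RPKM in hop libraries, 63.4, 68.3 and 71.3 in Myc libraries and 53.2, 56.7 and 53.8 in gfp libraries. The values of *Vha68-2* overlapped between all groups, while every Myc library lay above every hop and gfp library for *Vha55*. Among all genes tested, 10.8% lay so above gfp in Myc and 13.1% below Myc in hop. *Vha55* was not called in either comparison.

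The shaft that turns inside this ring is made of subunits D and F. *Vha36-1* (D) was at 16.3, 18.1 and 16.5 RPKM in hop libraries, 24.7, 27.0 and 18.8 in Myc libraries and 20.5, 22.4 and 20.8 in gfp libraries. *Vha14-1* (F) was at 3.67, 7.24 and 8.51 RPKM in hop libraries, 7.86, 13.4 and 18.8 in Myc libraries and 8.88, 11.2 and 11.4 in gfp libraries. For both shaft subunits every hop library was below every gfp library, as was so for 16.5% of all genes tested. Neither difference passed the test. *Vha14-1* rests on 13 to 76 counts per library.

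The stalks that hold the ring still are built of subunits C, E and G. *Vha44* (C, the subunit that leaves the pump when V1 comes off the membrane, as known from yeast) was at 15.6, 19.6 and 22.1 RPKM in hop libraries, 29, 28.3 and 29 in Myc libraries and 14.0, 17.9 and 18.3 in gfp libraries. *Vha26* (E) was at 87.6, 114 and 110 RPKM in hop libraries, 132, 120 and 119 in Myc libraries and 81.0, 86.6 and 77.4 in gfp libraries. *Vha13* (G) was at 15.8, 14.2 and 12.6 RPKM in hop libraries, 17.1, 18.8 and 20.4 in Myc libraries and 13.8, 13.3 and 15.8 in gfp libraries. For all 3 stalk genes the Myc libraries lay above every gfp library and every hop library. Of all genes tested, 10.8% lay so above gfp in Myc, and 13.1% lay below Myc in hop. *Vha13* was not called in either comparison. *VhaSFD* (H, a regulatory subunit) was at 14.3, 23.3 and 16.7 RPKM in hop libraries, 17.4, 31.9 and 25.3 in Myc libraries and 17.7, 24.3 and 24.1 in gfp libraries, with overlap between all groups.

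In the V0 sector, subunit a carries the paths by which protons enter and leave the membrane, and, as known from yeast, it places the pump in a given membrane. It was the only subunit with 2 high copies. *Vha100-2* was at 34.6, 44.0 and 37.1 RPKM in hop libraries, 37.3, 38.2 and 32.98 in Myc libraries and 29.7, 31.5 and 36.6 in gfp libraries. *Vha100-1*, known for its role at synapses of fly neurons, was at 22.4, 23.1 and 25.2 RPKM in hop libraries, 16.03, 20.3 and 22.1 in Myc libraries and 21.4, 23.2 and 22.9 in gfp libraries. *Vha100-2* was above *Vha100-1* in every library, by 1.36 to 2.33 times. Beside *Vha100-1*, the 4 markers of neurons and glia summed to 444 to 811 CPM in hop, 302 to 578 in Myc and 430 to 608 in gfp libraries, and their part in its level was not tested.

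The proteolipid ring is built of many copies of subunit c and of subunit c''. *Vha16-1* (c) was at 218, 242 and 288 RPKM in hop libraries, 297, 278 and 280 in Myc libraries and 201, 215 and 210 in gfp libraries. It was 2.40 times as high as the next member and took 33.8% to 39.0% of all Vha CPM of a library. *VhaPPA1-1* (c'') was at 22.6, 27.7 and 32.8 RPKM in hop libraries, 30.3, 38.8 and 31.8 in Myc libraries and 24.8, 32.6 and 25.7 in gfp libraries. The groups of *VhaPPA1-1* overlapped.

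The other parts of V0 are subunit d, which joins the shaft to the ring, and the small membrane subunit e. *VhaAC39-1* (d) was at 27.2, 27.9 and 29.3 RPKM in hop libraries, 36.0, 36.4 and 28.7 in Myc libraries and 27.7, 25.2 and 30.3 in gfp libraries. *VhaM9.7-b* (e) was at 17.0, 21.6 and 20.3 RPKM in hop libraries, 21.3, 29.8 and 23.6 in Myc libraries and 19.7, 21.0 and 28.9 in gfp libraries. Both overlapped between hop and gfp and between Myc and gfp libraries. The accessory membrane proteins are *VhaAC45*, and *VhaM8.9*, the fly relative of the (pro)renin receptor. *VhaAC45* was at 19.0, 22.1 and 26.1 RPKM in hop libraries, 23.8, 27.2 and 22.8 in Myc libraries and 23.4, 22.3 and 21.1 in gfp libraries. *VhaM8.9* was at 27.1, 36.9 and 37.1 RPKM in hop libraries, 31.0, 33.3 and 30.5 in Myc libraries and 27.5, 39.3 and 26.8 in gfp libraries. Neither set one group apart from another.

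In the order of levels, *Vha16-1* was above *Vha26*, *Vha68-2* above *Vha55* and *Vha55* above *Vha100-2* in 9 of 9 libraries, and *Vha26* above *Vha68-2* in 8 of 9. *VhaPPA1-1* was above *VhaAC45* and *Vha13* above *Vha14-1* in 9 of 9, and *Vha36-1* above *Vha13* in 8 of 9. The other neighbours among the high members changed places in 2 to 6 libraries and were not set apart by their level. *Vha14-1* was above *Vha100-4* in 5 of 9 libraries, so the limit of 10 RPKM does not part these neighbours in every library. Without the correction for length (a limit of 20 CPM), *Vha13* and *Vha14-1* moved to the low set and *Vha100-4* to the high set, so that the high set then held no copy of subunits F and G.

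Of the 8 subunits with more than 1 copy, 7 had the same leading copy in all 9 libraries. Subunit c was the most uneven, with 93.4% to 98.1% of its summed RPKM from *Vha16-1* in every library. *Vha68-2* took 91.0% to 97.1% of subunit A, *VhaAC39-1* 86.8% to 97.7% of subunit d and *VhaPPA1-1* 84.3% to 95.5% of subunit c''. Subunit D was more mixed, with 66.4% to 92.7% from *Vha36-1* and most of the rest from *Vha36-3*. *VhaM9.7-b* took 50.2% to 74.9% of subunit e. Subunit F was the exception, since *Vha14-2* was above *Vha14-1* in hop 1 and gfp 1. The share of *Vha14-2* was 32.4% to 53.5% in hop libraries, 7.20% to 30.9% in Myc libraries and 29.4% to 51.7% in gfp libraries.

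**Figure D2:**
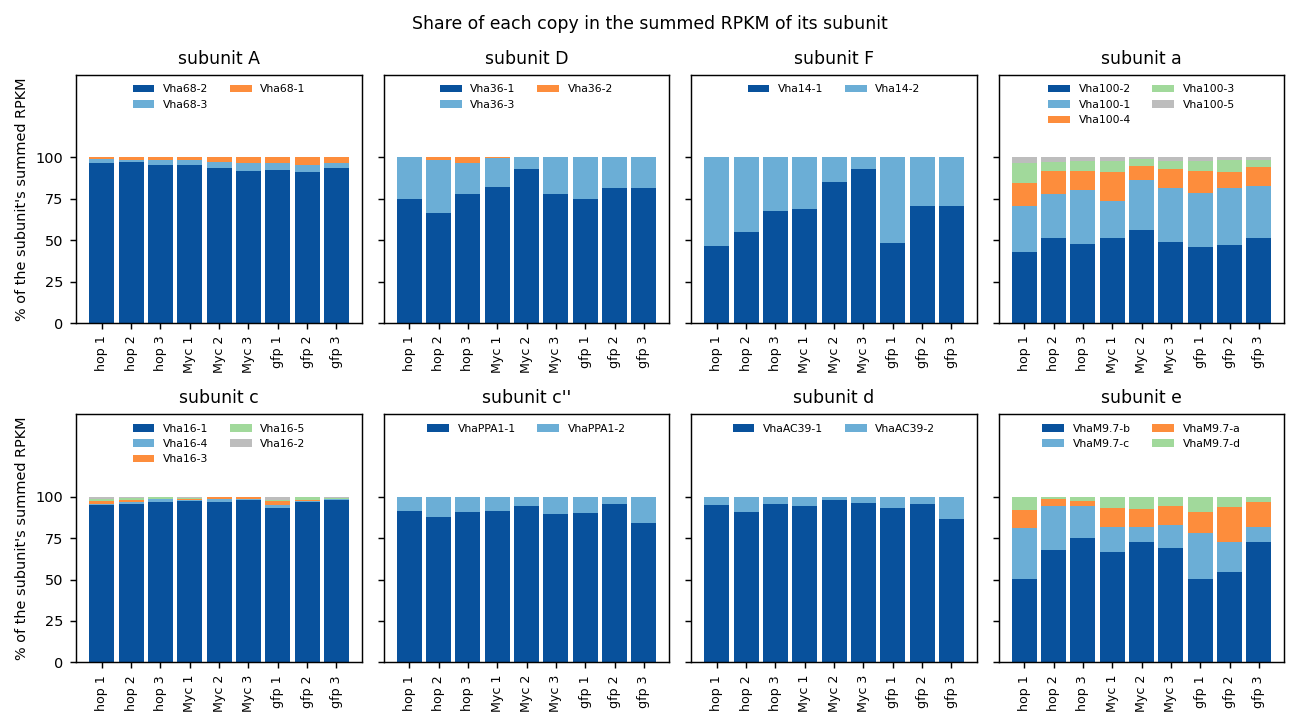
Stacked bars give the share (%) of each copy in the summed RPKM of its subunit, for the 8 subunits with more than 1 copy, in each of the 9 libraries. Subunits A, c, c'' and d are taken up by 1 copy, while subunits a and F are divided, with *Vha100-2* at 43.1% to 56.3% of subunit a.

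Among the low copies, one of subunit a was the highest. *Vha100-4*, known from the midgut of the fly, was at 10.9, 11.7 and 9.18 RPKM in hop libraries, 12.6, 5.87 and 7.77 in Myc libraries and 8.45, 6.67 and 7.88 in gfp libraries. Its gene starts 517 bp after *Vha100-2* on the same strand and shares 47 bp of exon with *cona*, and its RPKM was 15.4% to 33.9% of that of *Vha100-2*, so its reads cannot be told apart from reads that run on from *Vha100-2*. Of the 4 midgut markers, *Mal-A1* averaged 19.1 CPM in hop, 9.21 in Myc and 17.4 in gfp libraries, *alphaTry* and *betaTry* averaged under 1 CPM in each group, and *Amy-p* had no count in any library. Their part in the level of *Vha100-4* was not tested. *Vha100-3* ranged from 2.66 to 9.57 RPKM and *Vha100-5* from 0.867 to 2.87 RPKM over the 9 libraries.

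The other low copies stood at a few RPKM. The additional copies of subunit e were *VhaM9.7-c* (3.62 to 10.8 RPKM), *VhaM9.7-a* (0.740 to 8.22) and *VhaM9.7-d* (0.357 to 3.70). Those of subunit A were *Vha68-3* (0.939 to 4.27 RPKM) and *Vha68-1* (0.695 to 3.53). *Vha68-3* begins 178 bp after *Vha68-2* on the same strand and had 1.12% to 5.23% of its RPKM. Those of subunit c were *Vha16-4* (1.31 to 4.33 RPKM), *Vha16-5* (0.225 to 4.26), *Vha16-3* (0 to 5.21) and *Vha16-2* (0 to 3.996). *Vha16-3* had no count in gfp 3, which allows up to 0.717 RPKM, and *Vha16-2* none in Myc 2, which allows up to 1.06 RPKM. *Vha36-3* ranged from 2.12 to 8.73 RPKM, *Vha14-2* from 1.46 to 9.49, *VhaPPA1-2* from 1.53 to 4.80 and *VhaAC39-2* from 0.855 to 4.61.

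The trace member was *Vha36-2*, a copy of subunit D, with 0, 3 and 5 counts in hop libraries, 1, 0 and 0 in Myc libraries and no count in gfp libraries. Over the 3 gfp libraries, no count allows up to 0.130 RPKM. Exons of 6 members share bases with another gene, namely *Vha44* (148 bp with *Hmgs*), *Vha100-5* and *Vha16-2* (527 and 503 bp with an antisense RNA each), *Vha100-4*, *VhaPPA1-2* (12 bp with *CG3817*) and *Vha100-1* (11 bp with *Alg13*). The strand setting of the counting is not given in the sources used here, so reads on these bases cannot be assigned. *Vha16-2* had 53 reads over all libraries in the raw table and 4 in the normalized table, which used another annotation.

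For the comparisons, 30 of the 33 members passed the filter on low counts, and *VhaM9.7-d*, *Vha16-2* and *Vha36-2* were not tested. The tests were fitted on all 12741 genes that passed, with edgeR, and a gene was called at a Benjamini-Hochberg adjusted p under 0.05. Both comparisons with gfp use the same 3 control libraries. An exact permutation test of 3 libraries in each group has 0.1 as its smallest p, so none is given.

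In Myc supercompetitors, 3 members rose relative to control cells, all of them high copies, and none fell. They were the stalk subunits *Vha44* (chromosome 2R, 16324813 to 16336637, minus strand) and *Vha26* (3R, 5591763 to 5595356, plus strand) and the ring proteolipid *Vha16-1* (2R, 6625242 to 6633090, minus strand). Among all genes tested, 2.21% were called higher in Myc than in gfp, and 4.53% of the 5364 genes at 10 RPKM or more. Of the 30 members tested, 3 were called higher, and 0 were called lower, where 0.447% of all genes were. At an unadjusted p under 0.05 the counts were 4 higher and 1 lower, where 7.93% and 6.23% of all genes were. DESeq2, which gave an adjusted p to 21 of the members, called 3 higher and 1 lower, where it called 4.9% and 1.43% of all genes.

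*Vha44* averaged 28.8 ± 0.446 RPKM in Myc and 16.7 ± 2.38 RPKM in gfp libraries (SD, n = 3 each), a log2 fold change of 0.78 with a standard error of 0.15 and an adjusted p of 0.0125 (edgeR). *Vha26* averaged 124 ± 7.33 RPKM in Myc and 81.7 ± 4.66 RPKM in gfp libraries, a log2 fold change of 0.60 ± 0.12 (SE, adjusted p = 0.0142, edgeR). *Vha16-1* averaged 285 ± 10.03 RPKM in Myc and 209 ± 7.32 RPKM in gfp libraries, a log2 fold change of 0.45 ± 0.11 (SE, adjusted p = 0.0480, edgeR). In linear terms the 3 genes were 1.72, 1.52 and 1.37 times as high. For each of them all 3 Myc libraries lay above all 3 gfp libraries, as was so for 10.8% of all genes tested. The exons that *Vha44* shares with *Hmgs* are on opposite strands, and for *Hmgs* itself the log2 fold change was 0.49 (adjusted p = 0.316, edgeR). *Hmgs* averaged 29.5 ± 3.44 CPM in Myc and 21.0 ± 4.52 CPM in gfp libraries.

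The calls depended on the libraries in the fit. Without Myc 1, *Vha44* and *Vha26* were still called, with log2 fold changes of 0.80 and 0.58, and *Vha16-1* was not (0.45, adjusted p = 0.0646, edgeR). Without gfp 1 the log2 fold changes were 0.67, 0.59 and 0.42, and without gfp 2 they were 0.84, 0.65 and 0.47, with no member called in either case. Without gfp 3 the count was 1 (*Vha44*). *Vha16-1* was also not called without hop 2, Myc 2 or Myc 3 (adjusted p = 0.0535, 0.0834 and 0.0982, edgeR). Leaving out a gfp library also lowered the calls over all genes, with 52 to 145 higher in Myc against 281 with all libraries.

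The other 13 high copies did not pass the test. In Myc against gfp, 15 of the 16 high members, the 3 called ones included, had a log2 fold change above 0, where 54.1% of the genes at 10 RPKM or more and 45.9% of all genes tested did. Their median was 0.23, where that of the genes at 10 RPKM or more was 0.03 and that of all genes tested -0.04. *Vha100-1* was the one below 0, at -0.21. All 3 Myc libraries lay above all 3 gfp libraries for 5 of the 16 (*Vha13*, *Vha16-1*, *Vha26*, *Vha44* and *Vha55*), against 10.8% of all genes tested. All genes tested include many at low levels. The share among genes at 10 RPKM or more was not computed, here or in the other comparisons. By sector the median log2 fold change was 0.33 over the 8 high V1 genes, 0.21 over the 6 high V0 genes and 0.08 over the 2 accessory genes. The 14 low members tested had a median of -0.26 and 5 of them lay above 0. The 33 genes together summed to 2372, 2396 and 2347 CPM in Myc libraries and 1790, 1934 and 1914 CPM in gfp libraries. Without *Vha16-1*, *Vha26* and *Vha44* the sums were 955, 1074 and 1018 CPM in Myc libraries and 878, 946 and 967 CPM in gfp libraries, which overlap.

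*Vha14-2*, the additional copy of shaft subunit F, was chosen for description after its values were seen. It was at 3.52, 2.39 and 1.46 RPKM in Myc libraries and 9.49, 4.71 and 4.76 RPKM in gfp libraries, with a log2 fold change of -1.36 (adjusted p = 0.0893, edgeR). DESeq2, and the edgeR fit without Myc 1, called it lower in Myc, at adjusted p of 0.0283 and 0.0311. They called 1.43% and 0.723% of all genes lower. The summed testis markers were also lower in Myc than in gfp libraries (9.11 to 16.03 against 20.4 to 25.4 CPM), with none of them called, and their part was not tested.

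**Figure D3:**
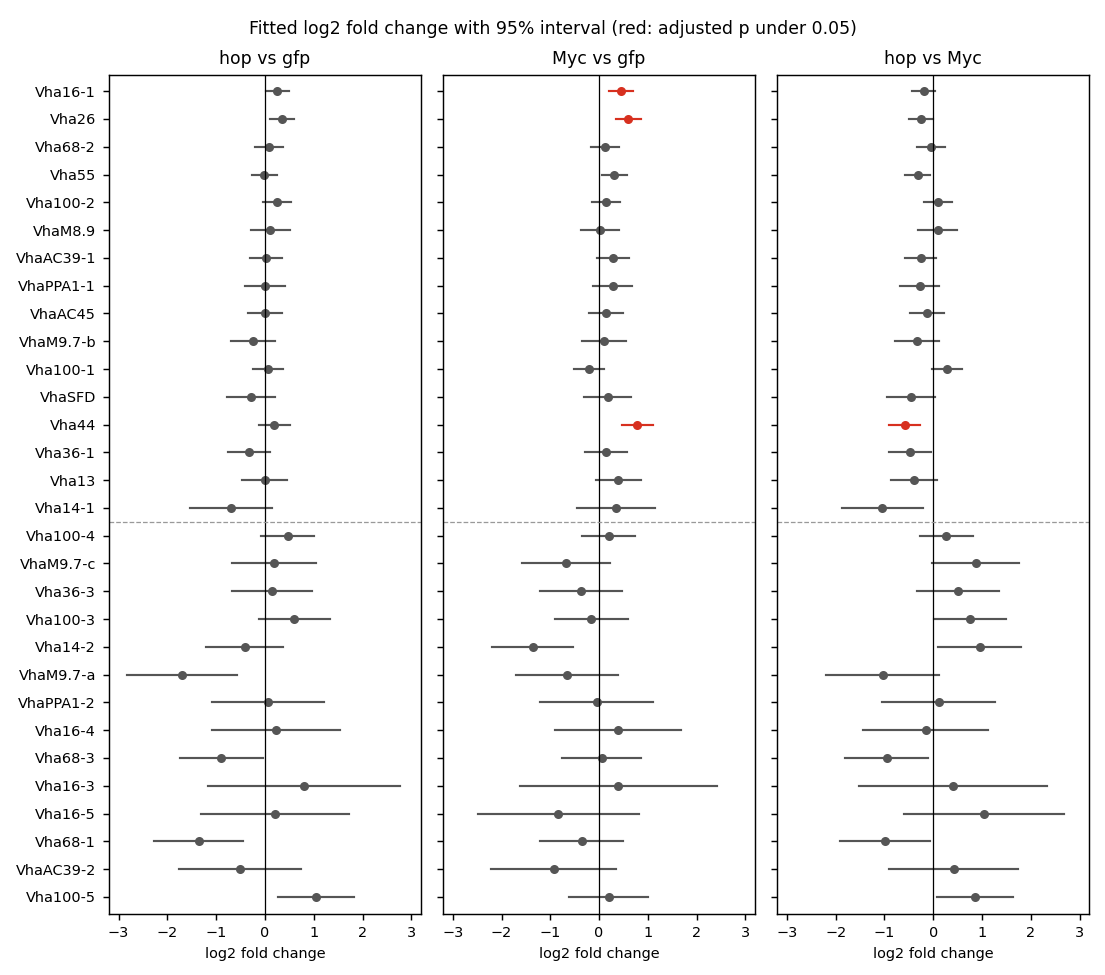
Fitted log2 fold changes (points) with 95% intervals (lines) of the 30 tested Vha genes, from the highest to the lowest mean RPKM, for hop vs gfp, Myc vs gfp and hop vs Myc. Red marks an adjusted p under 0.05, and the dashed line parts the 16 high members above from the 14 low members below. *Vha44*, *Vha26* and *Vha16-1* are red in the middle panel and *Vha44* in the right one.

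In STAT supercompetitors, no member was called relative to control cells. Of 30 members tested, 0 were higher, where 3.58% of all genes were, and 0 were lower, where 3.56% were. At an unadjusted p under 0.05, 3 members were higher and 3 lower, where 11.9% and 13.1% of all genes were. DESeq2 called 0 higher and 2 lower, where it called 5.18% and 4.57% of all genes. Without hop 1, and without Myc 1, *Vha26* was called higher, where 2.71% and 8.3% of all genes were. The high members had a median log2 fold change of 0.01, between -0.69 (*Vha14-1*) and 0.35 (*Vha26*), and 10 of 16 lay above 0, where 60.3% of the genes at 10 RPKM or more did. For 11 of the 16 the 95% interval of the fold change lay within 1.5-fold in both directions, and for 15 within 2-fold. *Vha14-1* was the exception to the wider limit, with an interval from -1.53 to 0.14 on the log2 scale. For *Vha68-2* the interval ran from -0.20 to 0.36 and for *Vha55* from -0.27 to 0.24. Every hop library was above every gfp library for *Vha16-1* and *Vha26* and below it for *Vha14-1* and *Vha36-1*, against 14.8% of all genes tested above and 16.5% below.

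The 14 low members tested had a median log2 fold change of 0.16, between -1.70 (*VhaM9.7-a*) and 1.05 (*Vha100-5*). Of them, 9 lay above 0 and 5 below. The 2 members with the smallest p in this comparison were low copies with log2 fold changes below 0. *VhaM9.7-a* (subunit e; 3L, 4262705 to 4263464, plus strand) was at 3.67, 1.49 and 0.740 RPKM in hop libraries and 4.89, 8.22 and 6.06 RPKM in gfp libraries, with a log2 fold change of -1.70 ± 0.53 (SE, adjusted p = 0.0647, edgeR). It rests on 14, 6 and 3 counts in hop libraries and 19, 34 and 28 in gfp libraries. *Vha68-1* (subunit A; 2L, 13000770 to 13004107, minus strand) was at 0.695, 1.58 and 1.05 RPKM in hop libraries and 2.12, 3.53 and 2.93 RPKM in gfp libraries, with a log2 fold change of -1.36 ± 0.43 (SE, adjusted p = 0.0661, edgeR). Neither passed the threshold. For both every hop library was below every gfp library, as was so for 16.5% of all genes tested. Both were called lower without Myc 1 (adjusted p = 0.0404 and 0.0219, edgeR), in the fit of the 6 hop and gfp libraries alone (0.0484 and 0.0319, edgeR) and by DESeq2 (0.0466 and 0.0443). In that order, these fits called 6.47%, 6.38% and 4.57% of all genes lower, against 3.56% in the main fit. Without hop 1, *VhaM9.7-a* was called at a log2 fold change of -2.46 (adjusted p = 0.0315, edgeR), where 2.39% of all genes were called lower. The summed testis markers were also lower in hop than in gfp libraries, as given above, and their part was not tested. *Vha68-2*, the leading copy of subunit A, had a log2 fold change of 0.08, and *VhaM9.7-b*, the leading copy of subunit e, one of -0.24.

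**Figure D4:**
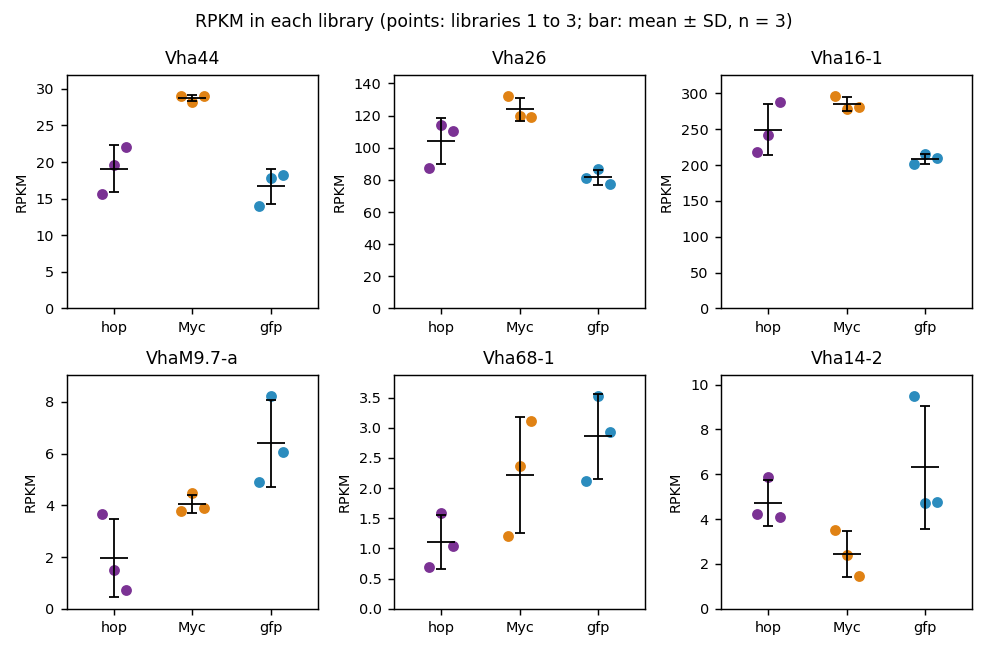
RPKM of 6 Vha genes in each library (points, libraries 1 to 3 from left to right) with mean ± SD (n = 3) for hop, Myc and gfp. In the upper row the Myc libraries lie above the gfp libraries, at 28.3 to 29 against 14.0 to 18.3 RPKM for *Vha44*, and the lower row holds 3 low copies at under 10 RPKM.

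Between STAT and Myc supercompetitors, 1 member was lower in hop than in Myc, where 3.24% of all genes were, and 0 were higher, where 3.34% were. It was *Vha44*, at 15.6, 19.6 and 22.1 RPKM in hop libraries and 29, 28.3 and 29 RPKM in Myc libraries, with a log2 fold change of -0.59 ± 0.15 (SE, adjusted p = 0.0334, edgeR). *Vha55* came next, with a log2 fold change of -0.32 ± 0.12 (SE, adjusted p = 0.113, edgeR). At an unadjusted p under 0.05, 3 members were higher and 6 lower, where 11.7% and 13.1% of all genes were. DESeq2 called 0 higher and 1 lower, where it called 4.76% and 4.37% of all genes. The median log2 fold change of the high members was -0.27, and for 13 of 16 it was below 0, where 47.8% of the genes at 10 RPKM or more were. All 8 high V1 genes were below 0, with a median of -0.43, and the high V0 genes had a median of -0.23. All 3 hop libraries lay below all 3 Myc libraries for 5 of the 16 and above for 1 (*Vha100-1*), against 13.1% and 11.4% of all genes tested. The 14 low members had a median of 0.41.

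Myc 1 weighs on this comparison. Without it, 5 members were called lower in hop than in Myc (*Vha14-1*, *Vha44*, *Vha68-1*, *Vha68-3* and *VhaSFD*) and 2 higher (*Vha100-3* and *Vha14-2*), while the calls over all genes were 8.53% lower and 10.7% higher. *Vha44* was then at -0.58 (adjusted p = 0.0206, edgeR). It was no longer called without gfp 2, gfp 3, hop 1, hop 2, Myc 2 or Myc 3, each left out alone, where its log2 fold change was between -0.59 and -0.46 (adjusted p = 0.0565 to 0.117, edgeR).

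Genes that act with the pump were read from lists, beside which the shares of all genes called were 3.58% higher and 3.56% lower in hop against gfp, 2.21% and 0.447% in Myc against gfp and 3.34% and 3.24% in hop against Myc. The list of V-ATPase assembly and regulation has *Rbcn-3A* and *Rbcn-3B*, which bind V1 and promote its assembly, *Mitf*, the transcription factor known to drive V-ATPase and lysosomal genes in the fly, and *mtd*. None of these 4 was called in any comparison, and *Mitf* averaged 129 CPM in hop, 121 in Myc and 120 in gfp libraries. Of 18 lysosomal genes tested, hop libraries had 1 higher and 1 lower than gfp, and Myc libraries had 0 higher and 1 lower. *spin*, a lysosomal transporter, was at 264 ± 16.3 CPM in hop and 181 ± 4.33 CPM in gfp libraries (log2 fold change 0.54, adjusted p = 0.0413, edgeR). *LManII*, a lysosomal mannosidase that the table lists as LM408, was at 42.8 ± 8.19 CPM in hop and 81.4 ± 3.40 CPM in gfp libraries (log2 fold change -0.93, adjusted p = 0.0126, edgeR). In Myc libraries it was at 44.4 ± 10.6 CPM (log2 fold change against gfp -0.88, adjusted p = 0.0221, edgeR).

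TORC1 and the proteins that hold it at the lysosome gave 1 call among 17 genes tested. *Lamtor4*, a part of the Ragulator complex that links the pump to TORC1 (*CG14977* in the table), was at 35.1 ± 2.29 CPM in hop and 15.4 ± 5.61 CPM in gfp libraries (log2 fold change 1.18, adjusted p = 0.0119, edgeR). In Myc against gfp 0 of the 17 were called. Of the 3 listed genes of the ClC family, 0 were called relative to gfp, and whether each of them acts with the pump was not examined. *ClC-a* was lower in hop than in Myc, at 5.84 ± 2.05 CPM in hop and 21.7 ± 13.1 CPM in Myc libraries (log2 fold change -1.89, adjusted p = 0.0305, edgeR).

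The F-type ATP synthase of mitochondria is a related rotary machine that makes ATP, and it was set beside the vacuolar pump. In Myc against gfp 6 of its 13 genes tested were higher and 0 lower, with a median log2 fold change of 0.57, against 2.21% of all genes called higher and 4.53% of those at 10 RPKM or more. The 4 with the smallest p were *blw*, *ATPsynC*, *ATPsyndelta* and *ATPsynbeta*. *blw*, the alpha subunit, averaged 914 ± 8.40 CPM in Myc and 562 ± 37.7 CPM in gfp libraries (log2 fold change 0.70, adjusted p = 0.00378, edgeR). *ATPsynC*, the ring proteolipid, averaged 1456 ± 36.5 CPM in Myc and 866 ± 77.3 CPM in gfp libraries (log2 fold change 0.75, adjusted p = 0.00539, edgeR). *ATPsyndelta* and *ATPsynbeta* had log2 fold changes of 0.70 and 0.57 (adjusted p = 0.00658 and 0.0112, edgeR). In hop against gfp 1 of the 13 was higher, *ATPsyndelta*, with a log2 fold change of 0.52 (adjusted p = 0.0223, edgeR), and in hop against Myc 1 was lower, *ATPsynbeta*, with -0.48 (adjusted p = 0.0197, edgeR). The ring proteolipid was called higher in Myc for both machines. Subunits of the other ring, which breaks down or makes ATP, were called higher for the F-type enzyme (*blw* and *ATPsynbeta*). Those of the V-type pump (*Vha68-2* and *Vha55*) were not called. In Myc against gfp *Vha55* had a log2 fold change of 0.31 (95% interval 0.06 to 0.57) and *Vha68-2* one of 0.13 (-0.16 to 0.41). The difference between the lists was not tested.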

How the data were processed

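Sorted cells of 3 genotypes were sequenced, 3 libraries each. The authors aligned paired-end reads to dm6 with STAR, removed duplicates with Picard and counted reads on exons with HTSeq; the deposited raw counts are whole numbers per gene symbol. The authors divided counts by size factors to make the signal values of the normalized table; multiplied back, 99.99% of its nonzero values lay within 0.02 of a whole read. Tool versions, annotation release and strand setting: not given in the sources used here. Labels name polyA RNA and the study's methods total RNA, which was not resolved.

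Genes were filtered (filterByExpr), scaled (TMM) and tested with the default quasi-likelihood fit of edgeR 4.0.16 (R 4.3.3) on all 9 libraries, without a replicate block, with Benjamini-Hochberg adjustment over 12741 genes. Intervals are 95% from the fit. Floors take 3 counts and cover counting error only. Lengths are unions of annotated exons. No column of per-sample values was left out.

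The members and lists were chosen with earlier results of these data known. Every Vha gene is named; values per library are given for high and called members, statistics for called members or, where fewer than 2 were called, for the 2 with the smallest p. Genes of the lists on V-ATPase assembly, the lysosome, TORC1, the ClC family and the F-type ATP synthase are named where called. This holds for up to 4 per list and comparison, and marker lists are given as sums and calls. Nothing says that libraries came from separate cultures beyond triplicate dissections, so p-values measure the spread between these libraries, which may be technical. A search of promoters was planned and not run, as no genome sequence was used here. Alternatives were RLE and upper quartile scaling, DESeq2 1.42.0, no filter, 10 or more counts per library, limma-voom (limma 3.58.1), the 6 libraries compared, a replicate block, reads recovered from the normalized table, a fold change of at least 1.5, each library left out, and, added after seeing the data, a robust quasi-likelihood fit.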

Additional observations from a re-analysis of the deposited data

Results flagged for a closer look

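The response of *Vha44*, which encodes stalk subunit C, differed between the 2 supercompetitors by the test of the difference itself. Its log2 fold change against gfp was 0.19 in hop and 0.78 in Myc, and hop against Myc gave -0.59 (adjusted p = 0.0334, edgeR, all 3 hop libraries below all 3 Myc libraries). Of the 30 members tested it was the 1 called lower, where 3.24% of all genes were called lower. The call was lost in 6 of the 9 fits that left out a library and in the fit of the 6 hop and Myc libraries alone.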

How the results depend on the processing

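The counts of members called were 0 higher and 0 lower in hop against gfp, 3 and 0 in Myc against gfp and 0 and 1 in hop against Myc. They did not move with RLE or upper quartile scaling beyond 1.5 times, no filter, at least 10 counts in every library, limma-voom, the recovered reads, a fold change of at least 1.5 or the robust fit. DESeq2 called 2 lower in hop against gfp and 1 lower in Myc against gfp, where it called 4.57% and 1.43% of all genes. The fit of the 6 libraries compared called 2 lower in hop against gfp and 0 lower in hop against Myc, where 6.38% and 0.981% of all genes were. With the replicate block, 2 were lower in hop against gfp (*VhaM9.7-a* and *Vha68-1*, adjusted p = 0.0428 and 0.0192, edgeR). It also gave 1 lower in Myc against gfp (*Vha14-2*, adjusted p = 0.0329, edgeR) and 2 lower in hop against Myc (*Vha14-1* and *Vha44*). Over all genes the block called 7.21% higher and 6.31% lower in hop against gfp. It called 3.13% and 1.11% in Myc against gfp and 7.65% and 6.25% in hop against Myc, each above the share of the main fit. Deviations of same-numbered libraries correlated at -0.14 to 0.39 and not over 0.1 in every pair. Whether the numbers pair the libraries was not settled by these values. Leaving out 1 library gave 0 to 1 higher and 0 to 2 lower in hop against gfp, 0 to 3 higher and 0 to 1 lower in Myc against gfp, and 0 to 2 higher and 0 to 5 lower in hop against Myc. Over all genes these fits called 0.486% to 8.3% higher and 0.431% to 6.47% lower in hop against gfp. In Myc against gfp the shares were 0.4% to 2.89% and 0.0385% to 0.723%, and in hop against Myc 0.95% to 10.7% and 0.791% to 8.53%. Levels in CPM without length put 2 genes in the trace set (*Vha36-2* and *VhaM9.7-d*) against 1. Upper quartile scaling and the recovered reads ended the call of *Vha16-1* in Myc against gfp (adjusted p = 0.0524 and 0.0546, edgeR). The log2 fold change of *Vha44* in Myc against gfp was 0.67 to 0.87 over all alternatives, that of *Vha26* 0.57 to 0.65 and that of *Vha16-1* 0.41 to 0.49. Depth limits the low copies, whose 14 tested members had a median standard error of 0.41 in hop against gfp, against 0.16 for the high members. The cause of these shifts was not tested.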
